A study of Mus musculus with 4 samples.

Results

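The genes described here encode the proteins of the cytosolic ribosome. They were chosen by symbol: every gene whose name starts with Rpl or Rps followed by a digit, together with Rplp0, Rplp1, Rplp2 and Rpsa. The Rps6k kinases (10 names) and names holding -ps (5 names, pseudogenes) were left out. This gave 86 of the 32285 genes in the count tables. Of these, 52 carry large-subunit names and 34 small-subunit names. The set splits into 77 core genes and 9 paralogs or other names (Rpl3l, Rpl7l1, Rpl10l, Rpl22l1, Rpl36al, Rpl39l, Rps27l, Rps27rt and Rps19bp1). The last of these encodes a nucleolar partner of Rps19, which the rule takes in by its name.

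The study profiled iNKT (invariant natural killer T) cells, whose semi-invariant T cell receptor recognises lipids on CD1d, from the thymus of mice 6 to 8 weeks old. It compared wild-type mice with mice labelled as knockouts (KO) of ACC1, acetyl-CoA carboxylase 1, which makes malonyl-CoA for fatty acid synthesis. Cells were enriched on magnetic columns, sorted as CD3+ CD1d tetramer+ and sequenced with 10x Genomics 3′ chemistry (version 3.1), with 2 libraries per genotype, called WT 1, WT 2, KO 1 and KO 2 after the numbers in their labels. The labels name neither the exon removed nor any Cre driver, so counts of Acaca, the gene for ACC1, check nothing about them. Separate animals are not named for the libraries either, and p-values then measure the spread between these libraries alone.

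Each ribosome joins a large and a small subunit, and nearly all of their proteins are needed in equal number. The mRNAs of these proteins begin with a run of pyrimidines, the 5′ terminal oligopyrimidine (TOP) motif, through which mTORC1 and Larp1 control their translation and stability. Growing or activated T cells raise ribosome production, and some ribosomal proteins have a paralog that can take their place: Rpl22l1 for Rpl22, Rps27l for Rps27. Rpl22 is required for normal development of alpha-beta T cells.

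After removal of low-quality barcodes and predicted doublets, iNKT cells numbered 4624 in WT 1, 9017 in WT 2, 5609 in KO 1 and 7795 in KO 2, with a median of 4653, 6223, 4483 and 7339 UMIs per cell. The sums over these cells held 23705179, 63776729, 28684018 and 65656909 UMIs. Across libraries, 102 of 30353 barcodes occurred more than once. The mitochondrially encoded share was 3.105% and 2.54% in the libraries numbered 1 and 1.75% and 1.42% in those numbered 2. Xist, expressed from the inactive X chromosome of females, was at most 0.591 CPM (UMIs of a gene per 1000000 UMIs) in the libraries numbered 1 and at least 588.9 in those numbered 2, and Ddx3y on the Y chromosome showed the reverse. Number, depth and sex of the mice therefore cannot be told apart. The genotype difference of the share is also given within each number below, and other genotype values only in part.

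The part of the results that turns on sequence is the Rps27 family, in which 1 paralog can be counted apart from the main gene and the other hardly so. Rps27 (chr3:90212522-90213651, minus strand, mm10) and Rps27rt (chr9:114982366-114982739, minus strand) have the same 255 coding bases, so only untranslated bases separate their reads. Rps27l (chr9:66946086-66949516, plus strand) has a coding sequence of the same length that differs at 61 positions, 76.1% identity. The coding sequences from GENCODE are given 5′ to 3′. Capitals in Rps27l mark the bases that differ from Rps27.
Rps27: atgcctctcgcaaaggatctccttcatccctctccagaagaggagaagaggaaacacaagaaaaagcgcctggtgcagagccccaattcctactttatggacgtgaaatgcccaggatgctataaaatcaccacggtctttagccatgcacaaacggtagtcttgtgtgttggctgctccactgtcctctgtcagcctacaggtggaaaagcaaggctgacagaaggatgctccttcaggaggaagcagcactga
Rps27l: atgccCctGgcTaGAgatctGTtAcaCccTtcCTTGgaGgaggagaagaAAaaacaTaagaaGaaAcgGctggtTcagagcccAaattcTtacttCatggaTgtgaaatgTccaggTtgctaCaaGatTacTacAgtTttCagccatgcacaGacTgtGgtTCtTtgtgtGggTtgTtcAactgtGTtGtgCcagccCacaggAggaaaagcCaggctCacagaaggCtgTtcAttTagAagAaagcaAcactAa
Reads of 3′ libraries come from the end of the transcript, and in its last 300 bases every 50-base stretch of Rps27 also occurs in at least 1 of 9 other annotated genes. For Rps27rt this share was 88.4%, and for Rps27l 21.9%. Counts of Rps27, Rps27rt and of Rpl9, Rpl10 and Rpl36a, where the share was also 100%, are therefore uncertain as to their source.

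Ribosomal protein genes were among the most abundant transcripts of these cells. In the sums over all iNKT cells they gave 26.2% of UMIs in WT 1 (95% Clopper-Pearson interval 26.165 to 26.2, counting error only), 31.8% in WT 2, 29.0% in KO 1 and 33.9% in KO 2. Large-subunit names took 13.53%, 16.72%, 15.04% and 17.96% and small-subunit names 12.65%, 15.04%, 13.999% and 15.94%, in the same order. A UMI counts a molecule once whatever its length, so CPM of different genes are not scaled by length. They still differ in capture and in how much of their end is shared with other genes. The most abundant gene was Rps24, on chromosome 14, at 7643, 10280, 8630 and 10610 CPM. Rps29 followed at a mean of 8568 CPM, then Rpl13 at 6943, Rpl23 at 6889 and Rps27 at 6790. Output was spread widely over the family, with 74 of 86 genes above 1000 CPM in every library and the top 10 giving 23.3% of its UMIs.

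At the low end stood mostly paralogs. Rpl10l, a testis paralog of Rpl10, had no UMI in any iNKT cell. Rpl3l, the striated-muscle paralog of Rpl3, had 2, 2, 2 and 1 UMIs in WT 1, WT 2, KO 1 and KO 2. Rpl39l averaged 1.85 CPM, Rps19bp1 34.3, Rpl7l1 65.5 and Rps27rt 71.8. Among the 77 core genes, Rpl4 (703.5 CPM) and Rpl31 (795 CPM), both of the large subunit, had means below 1000 CPM.

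Between genotypes, the share of UMIs from ribosomal protein genes was higher in the KO library of each number. It averaged 28.97% ± 3.94 in WT and 31.47% ± 3.44 in KO (SD, n = 2 each). The difference was 2.86 percentage points in number 1 and 2.14 in number 2, against 5.57 between the 2 WT libraries and 4.86 between the 2 KO libraries. The mean difference of 2.502 points was thus smaller than the spread within a genotype, and WT 2 lay above KO 1 (exact two-sided permutation test, p = 0.667, where 2 against 2 cannot go below 0.333). Without WT 1 it was -0.28 points. Fewer cells of a kind and less RNA per cell cannot be told apart in such sums. Per cell, the median share was 26.1%, 32.5%, 29.5% and 34.8%, and after each cell was thinned to 2000 UMIs 26.1%, 32.5%, 29.6% and 34.8%. Within a library the share moved with a cell's depth in both directions: between the shallowest and the deepest of 4 equal groups of cells it went from 24.8% to 26.7% in WT 1 and from 34.4% to 30.7% in WT 2.

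**Figure D1:**
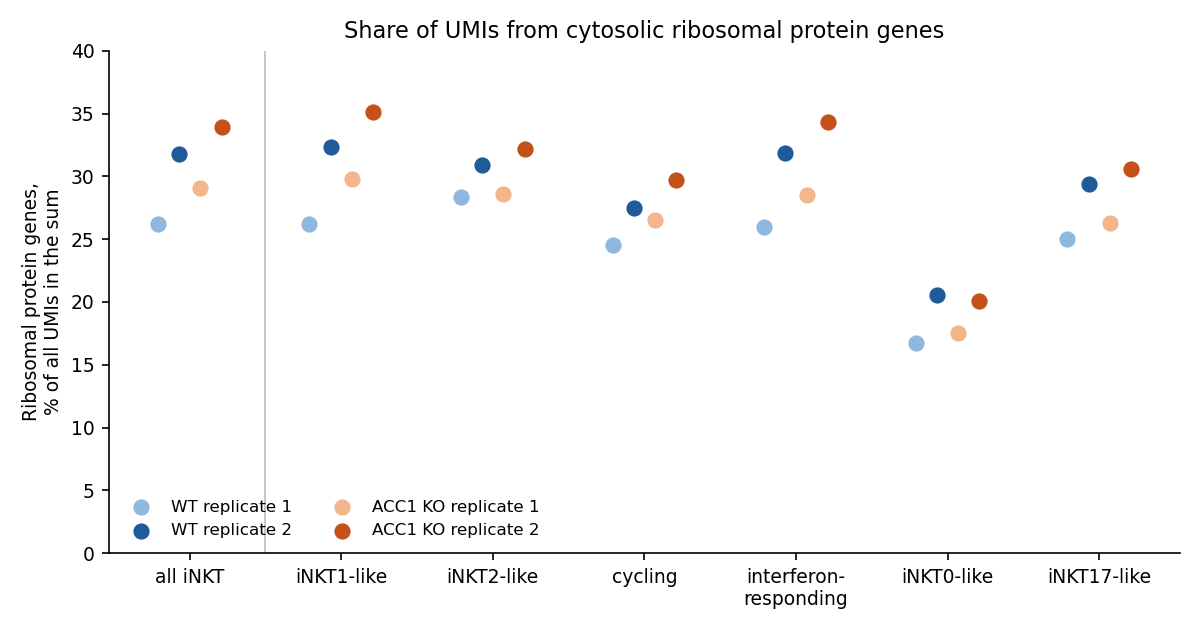
Share of all UMIs (y axis, %) taken by ribosomal protein genes in the sum over all iNKT cells and in each cell class (x axis), 1 point per library. The libraries numbered 2 (31.8% and 33.9% over all cells) lie above those numbered 1 (26.2% and 29.0%), and within a number the KO point over all cells lies above the WT point.

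Cells were grouped into classes by clustering on genes that left out, among others, ribosomal protein genes, Fau and mitochondrially encoded genes. Clusters were then named from marker genes. iNKT1-like cells (21725, cells of a T-bet program) had Tbx21 at 101 to 154 CPM across libraries, against 21 to 38 in iNKT2-like cells. iNKT2-like cells (1375, the IL-4-producing program) had Zbtb16, the transcription factor PLZF, at 760 to 1383 CPM against 89 to 143 in iNKT1-like cells. Cycling cells (1179) carried Mki67 at 274 to 439 CPM and interferon-responding cells (2193) Ifit1 at 385 to 435 CPM. iNKT0-like (353) and iNKT17-like (220) cells fell under 50 cells in at least 1 library and are only described. The iNKT2-like class rested on 1 cluster whose 10 leading genes held 2 markers of its own, Plac8 and Zbtb16, and 2 of the iNKT0 list, Ccr9 and Id3. Its cycling markers summed to 793 to 1081 CPM, against 62 to 75 in iNKT1-like cells.

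In iNKT1-like cells the share was 26.2%, 32.3%, 29.8% and 35.1% in WT 1, WT 2, KO 1 and KO 2, a difference of 3.56 points between genotypes in number 1 and 2.80 in number 2. The genotypes differed in how iNKT1-like cells fell into clusters, with 299 WT and 3014 KO cells in cluster 3, 2172 and 762 in cluster 0, and 2436 and 551 in cluster 2. Within each of the 8 iNKT1-like clusters the KO share was above the WT share in both numbers, by 1.95 to 4.22 points. Some marker lists named for other cell types also had higher sums in KO than in WT within both numbers in iNKT1-like cells. CD4+ CD8+ thymocyte markers were at 21.29, 19.98, 47.86 and 36.45 CPM in WT 1, WT 2, KO 1 and KO 2. Mature T cell markers were at 37.8, 35.1, 72.9 and 57.7, NK cell markers at 319.2, 671.4, 474.6 and 909.1, and B cell markers at 101.0, 88.7, 111.1 and 93.3. The thymocyte and mature T cell lists share Cd4, Cd8a and Cd8b1, and Cd8a was at most 0.457 CPM. The part of these lists in the share was not tested. In iNKT2-like cells the genotype difference was 0.24 points in number 1 and 1.26 in number 2. It was 2.03 and 2.22 in cycling cells, 2.505 and 2.51 in interferon-responding cells, 1.28 and 1.20 in iNKT17-like cells, and 0.78 and -0.50 in iNKT0-like cells. None of these exceeded the spread within a genotype (exact permutation test over libraries, p = 0.667, and 1.0 in iNKT0-like cells). Without WT 1 the mean difference was -0.55 points in iNKT2-like and -0.43 in interferon-responding cells, and without KO 2 it was -1.06 and -0.43.

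Compared within each library, cycling cells had a lower share than iNKT1-like cells in 4 of 4 libraries, by -1.73, -4.80, -3.26 and -5.38 points. The mean difference was -3.79 ± 1.64 (SD, n = 4; exact sign-flip permutation test, p = 0.125, the smallest 4 libraries can give, adjusted p = 0.188 over 3 classes). Cycling cells themselves comprised a cluster led by the replication genes Mcm3 and Mcm5, at 32.5% over its cells, and a cluster led by the mitotic genes Top2a and Mki67, at 24.9%. In WT 1, WT 2, KO 1 and KO 2 the replication cluster was at 26.1%, 31.3%, 30.5% and 35.1%. This was close to iNKT1-like cells (26.2%, 32.3%, 29.8% and 35.1%), and above them in KO 1. The mitotic cluster was lower in every library, at 22.5%, 24.8%, 22.1% and 26.0%. Interferon-responding cells were 0.26 to 1.32 points below iNKT1-like cells in every library (mean -0.70 ± 0.46, exact permutation p = 0.125). For iNKT2-like cells the sign was mixed, at 2.10 points in WT 1 and -1.37, -1.23 and -2.91 in the other libraries. iNKT0-like cells, named from early precursor markers (Lef1 at 4290 to 6298 CPM), had 16.7%, 20.6%, 17.5% and 20.1%. Their differences from iNKT1-like cells were -9.51 to -15.05 points. Their median depth was 2847, 5785.5, 2449 and 5242 UMIs per cell. CD4+ CD8+ thymocyte markers summed to 568.7, 105.8, 358.7 and 303.9 CPM in them, and mature T cell markers to 546.8, 82.3, 300.9 and 280.6. The part of these in the lower share was not tested. Cells of other types in the same libraries also stood below iNKT1-like cells: CD4+ CD8+ thymocyte-like cells at 16.3% to 20.9% and B cell-like cells at 20.3% to 24.7%.

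By genotype, no single ribosomal protein gene passed the test in the sums over all iNKT cells. edgeR's quasi-likelihood test, run on the 14739 genes that passed the filter on low counts, took in 84 of the 86 genes (Rpl10l and Rpl3l fell out) and called 0, against 0.00678% of all genes called higher and 0.0% called lower. By edgeR 0 had an unadjusted p under 0.05, against 719 of all 14739 genes. DESeq2 also called 0, against 68 of all genes higher and 34 lower. By DESeq2 1 had an unadjusted p under 0.05, against 613 of all genes. In direction, 78 of 84 had a positive log2 difference (48.5% of all genes), with a median of 0.15 against -0.01 over all genes. The median was 0.25 in number 1 and 0.09 in number 2, and 71 genes were positive in both, 3 negative in both and 10 of opposite sign. By CPM, 16 genes had both KO libraries above both WT libraries (11.5% of all genes did) and 1, Rps19bp1, had both below (19.3%). Without WT 1 the median was -0.01, and without KO 2 it was 0.03. All 31 core small-subunit genes were positive (median 0.14), as were 41 of 46 core large-subunit genes (median 0.17). With libraries scaled by their totals alone, 74 were positive and the median was 0.10, and the median over all genes moved from -0.01 to -0.05.

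**Figure D2:**
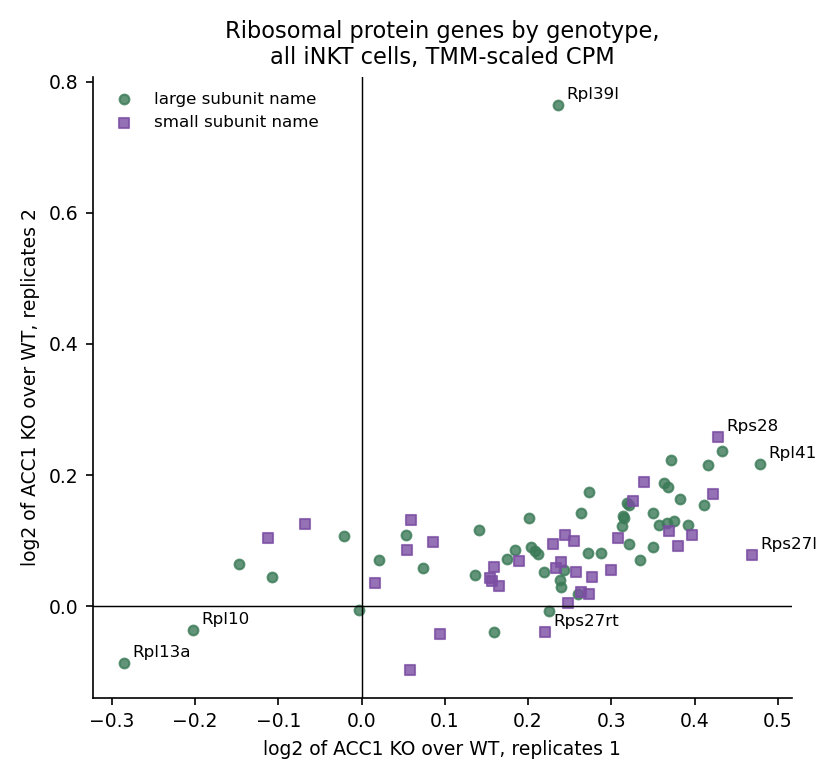
Each point is 1 ribosomal protein gene, with its log2 ratio of KO over WT in the libraries numbered 1 (x axis) and numbered 2 (y axis), from TMM-scaled CPM over all iNKT cells. Of the 84 genes, 71 lie in the upper right quadrant, and the values are larger in number 1 (median 0.25) than in number 2 (median 0.09).

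The genes with the smallest p in each direction are given next. Rpl41, which encodes the shortest ribosomal protein, was at 3631 and 4094 CPM in WT and 4717 and 4762 in KO. Its groups did not overlap, at a log2 difference of 0.34 ± 0.22 (SE), 0.48 in number 1 and 0.22 in number 2, with an adjusted p of 1.0 by edgeR. Rps27l was at 193.4, 172.9, 249.6 and 182.6 CPM in WT 1, WT 2, KO 1 and KO 2 (log2 0.29 ± 0.18, groups overlapping). Rpl39l, the paralog of the exit-tunnel protein Rpl39 that is best known from the testis, had the largest fitted value (0.51 ± 0.30) at 1.90, 1.25, 2.09 and 2.16 CPM. On the negative side, Rpl13a, a regulator of inflammatory translation when released from the ribosome, was at 2354, 4168, 1801 and 3928 CPM (-0.15 ± 0.49). Rpl10, a late-joining large-subunit protein encoded on X, was at 1416, 1949, 1147 and 1903 CPM (-0.10 ± 0.34). Rps19bp1 was at 34.8, 35.5, 33.8 and 33.2 CPM (-0.02 ± 0.13). The signs of these 3 turned when WT 2 was left out, and those of Rpl13a and Rpl10 also without KO 1.

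Within classes the count of calls was also 0 in the fit without a block for the library number. The background was 0.0073% of all genes called higher for iNKT1-like cells, 0.0% for iNKT2-like, 0.0375% for cycling and 0.0496% for interferon-responding cells. With a block the count changed in some classes, as given in the closing section on processing. In iNKT1-like cells 81 of 84 genes were positive (50.3% of all genes) with a median log2 of 0.22. In iNKT2-like cells 42 of 83 were (49.0%), with a median of 0.00. Cycling cells had 73 of 83 (50.8%, median 0.14) and interferon-responding cells 79 of 83 (48.9%, median 0.16). By CPM, both KO libraries lay above both WT libraries for 20 genes in iNKT1-like cells (7.53% of all genes), for 9 in the iNKT2-like class (12.5%), for 19 in cycling cells (11.6%) and for 15 in interferon-responding cells (9.41%). Both lay below for 1 (23.2%), 0 (12.3%), 0 (16.6%) and 1 (19.4%). Without single libraries the medians ran from 0.05 (without WT 1) to 0.46 (without WT 2) for iNKT1-like cells and from 0.04 to 0.25 for cycling cells. They ran from -0.09 to 0.11 for iNKT2-like cells, and from -0.04 (without KO 2) to 0.40 for interferon-responding cells.

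Rps28, a small-subunit protein close to the mRNA exit channel, was among the 3 genes with the smallest p in all 4 classes. In iNKT1-like cells it was at 5137 and 5666 CPM in WT and 6636 and 6893 in KO (log2 0.42 ± 0.23). In iNKT2-like cells it was at 5687 and 5514 CPM in WT and 6407 and 6465 in KO (0.20 ± 0.22). KO libraries lay above WT libraries in both classes, without a call in the fit that has no block (edgeR, adjusted p = 1.0 in both). In cycling cells Rps28 was at 4917 and 4866 against 5883 and 5843 CPM (0.30 ± 0.21), and in interferon-responding cells at 5188 and 5594 against 6306 and 6750 (0.34 ± 0.26). In its last 300 bases, 64.5% of 50-base stretches of Rps28 are shared with 8 other genes, so its level is uncertain. The other small-p genes were Rps27l and Rpl35 in iNKT1-like cells, Rpl39 and Rpl38 in iNKT2-like, Rpl7l1 and Rpl37a in cycling and Rpl41 and Rpl22 in interferon-responding cells. On the negative side in iNKT2-like cells, Rps6, the target of S6 kinase, was at 1704 and 2173 CPM in WT and 1375 and 2067 in KO (-0.18 ± 0.27). Rpl10 (-0.21 ± 0.27) and Rpl5, a partner of 5S rRNA (-0.16 ± 0.29), had the same pattern, and the 3 signs turned without KO 1.

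The genotype difference in iNKT2-like cells less that in iNKT1-like cells was negative for 83 of 84 ribosomal protein genes and positive for 1 (48.3% of all genes positive), with a median log2 of -0.21 against -0.01 over all genes. None passed the test (edgeR, 0.0745% of all genes called higher and 0.119% lower). An unadjusted p under 0.05 was found for 7 of the 84, and for 878 of all 13415 genes. Scaled by library totals the median was -0.11 and that of all genes 0.09, a shift of 0.10 that leaves the distance between them at -0.20. Without single libraries the median ran from -0.32 to -0.09. Rps27l had the smallest p (edgeR, log2 -0.39 ± 0.14, adjusted p = 0.449). Rps19, a small-subunit head protein mutated in Diamond-Blackfan anaemia, was at 3108, 4515, 4022 and 5309 CPM in iNKT1-like cells, so that KO exceeded WT in both numbers. In iNKT2-like cells it was at 3155, 4146, 3277 and 4075 CPM, and the difference between classes was -0.39 (adjusted p = 0.539). Rplp0, the base of the P stalk that recruits translation factors, followed at -0.34 ± 0.15 (adjusted p = 0.678).

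The difference between library numbers was larger than that between genotypes. With genotype as a term, 37 of 84 ribosomal protein genes were called higher in the libraries numbered 2 (14.8% of all genes) and 0 lower (12.9%), and 72 had a positive log2 ratio (50.2% of all genes), with a median of 0.29. By CPM, 55 had both libraries numbered 2 above both numbered 1 (22.4% of all genes) and 10 both below (34.7%). Rps27rt had the largest difference, at 32.4 and 35.2 CPM in WT 1 and KO 1 and 111.2 and 108.3 in WT 2 and KO 2 (log2 1.76 ± 0.10, adjusted p = 2.64e-08 by edgeR). Rpl4, a large-subunit protein that reaches into the exit tunnel, was at 419 and 405.5 against 956.8 and 1033 CPM (1.33 ± 0.11, adjusted p = 2.41e-06). Rpl36 followed at 1355 and 1687 against 3094 and 3597 CPM (1.21 ± 0.12). None of these 3 had overlapping groups. Rpl13a (1.04), Rpl26 (1.01), Rpl35a (0.95), Rps23 (0.93), Rpl21 (0.84) and Rpl5 (0.81), all without overlap, had adjusted p from 5.22e-05 to 0.000349. With any 1 library removed the median ran from 0.21 to 0.40. Without the genotype term 17 were called higher, and 546 of all 14739 genes in place of 2178.

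The log2 ratios of number 2 over number 1 were alike in the genotypes, with a Pearson r of 0.939 across genes between the WT and the KO pair. Genes are not independent replicates, and this r is a description. Across 80 genes its r with the share of 50-base stretches found in other genes was -0.06 (Spearman rho -0.07). The 22 genes with no shared stretch had a median ratio of 0.28, and the 43 with over 50% shared 0.34. Of the X-linked genes, Rpl10, Rpl36a and Rpl39 were called higher in number 2, and Rps4x was not, at 4321, 4163, 4868 and 4220 CPM in WT 1, WT 2, KO 1 and KO 2. Rpl36a was at 1254, 1785, 1461 and 1989 CPM and Rpl39 at 4805, 6231, 5781 and 7076. The mitochondrial share, sex and depth move with the number, and their part in these ratios was not tested.

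**Figure D3:**
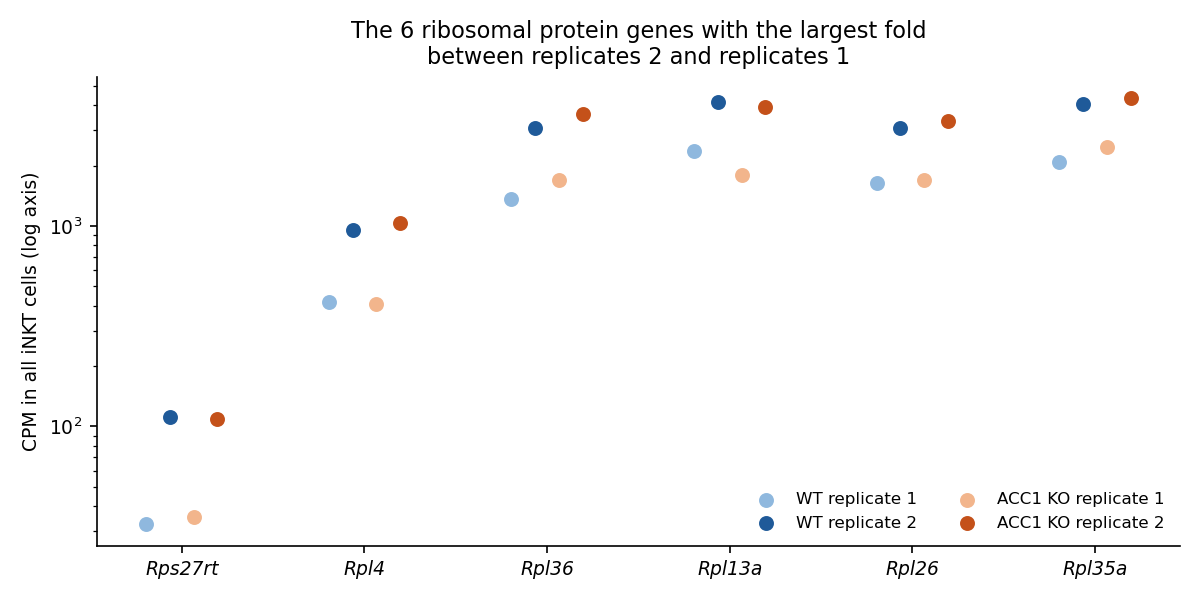
CPM (log axis) over all iNKT cells of the 6 ribosomal protein genes with the largest fold between library numbers, 1 point per library. For each gene the points of WT 2 and KO 2 lie together above those of WT 1 and KO 1, as for Rpl4 at 956.8 and 1033 against 419 and 405.5 CPM.

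Between classes, single ribosomal protein genes differed in both directions. The classes were compared within libraries, in 1 edgeR fit over 4 classes with library as a term. In iNKT2-like against iNKT1-like cells, 19 of 84 genes were called higher (22.6%, against 31.0% of all genes) and 32 lower (38.1%, against 32.7%). The log2 difference was positive for 34 of 84 (48.0% of all genes), with a median of -0.08 against -0.03 over all genes. Scaled by library totals, 29 were called higher and 27 lower (4104 and 3074 of all 11526 genes), so that 51.8% of the set's calls were higher in place of 37.3%. Among core genes, 11 large-subunit genes were called higher and 17 lower, and 5 small-subunit genes higher and 13 lower. The ratio of large-subunit to small-subunit UMIs was above that of iNKT1-like cells in every library, at 1.13, 1.18, 1.13 and 1.18 against 1.06, 1.11, 1.07 and 1.12. Cycling markers and the iNKT0 list (2216 to 2942 CPM in iNKT2-like cells) also differed between these classes. So did depth, with median UMIs per cell of 8820, 15097, 8106 and 13521 in iNKT2-like and 4587.5, 6122.5, 4343 and 7057 in iNKT1-like cells. The part of these in the differences was not tested.

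Rps27l rose most in iNKT2-like cells, from 168.4, 150.3, 215.9 and 158.6 CPM in iNKT1-like cells of WT 1, WT 2, KO 1 and KO 2 to 329.6, 356.6, 403.4 and 266.8. The log2 difference was 0.89 ± 0.08 (adjusted p = 2.48e-10), and it was seen in 4 of 4 libraries. Rpl28, a large-subunit surface protein, rose from 2168, 2626, 2314 and 2676 to 3965, 4446, 3920 and 4344 CPM (0.70 ± 0.06, adjusted p = 2.39e-11). Rpl31, a protein at the tunnel exit, went from 669.3 to 780.6 CPM across libraries to 1126 to 1272 (0.67 ± 0.06). None of these 3 had overlapping levels between classes. Rps26, which contacts mRNA upstream of the start codon, was at a mean of 3832 against 2357 CPM (0.65 ± 0.06). Rpl15 (0.47), Rpl41 (0.45), Rps19bp1 (0.31), Rpl10a (0.28) and Rplp0 (0.26) rose by less, with adjusted p of at most 0.00106. Without library as a term Rps26, Rpl10a and Rplp0 were not called (adjusted p = 0.0877, 0.1003 and 0.1158 by edgeR).

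The genes that fell without overlap between classes were all of the small subunit. Rps27 was at 6891, 6876, 7973 and 7409 CPM in iNKT1-like cells and 5061, 4307, 5438 and 4941 in iNKT2-like cells, a log2 difference of -0.64 ± 0.06 (adjusted p = 6.06e-10). Rps24, needed early in small-subunit maturation, went from 7928, 10750, 9263 and 11520 to 6183, 7111, 6381 and 7668 CPM (-0.59 ± 0.07, adjusted p = 7.22e-09). Rps21, a small-subunit protein particular to eukaryotes, went from 5811 to 7785 CPM across libraries to 4762 to 5479 (-0.52 ± 0.07). Levels fell in every library for these 3 genes. Rps27rt had the lowest log2 value, -0.73, but its levels in the libraries numbered 1 and 2 made the classes overlap. Rps16 (-0.35), which reaches toward the P site, and Rps14 (-0.35), a platform protein, completed the list. Of the P stalk, Rplp0 rose while Rplp1 (-0.23) and Rplp2 (-0.15), which bind to it as dimers, fell. Of the X-linked genes Rpl39 fell (-0.17) and the other three were not called.

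**Figure D4:**
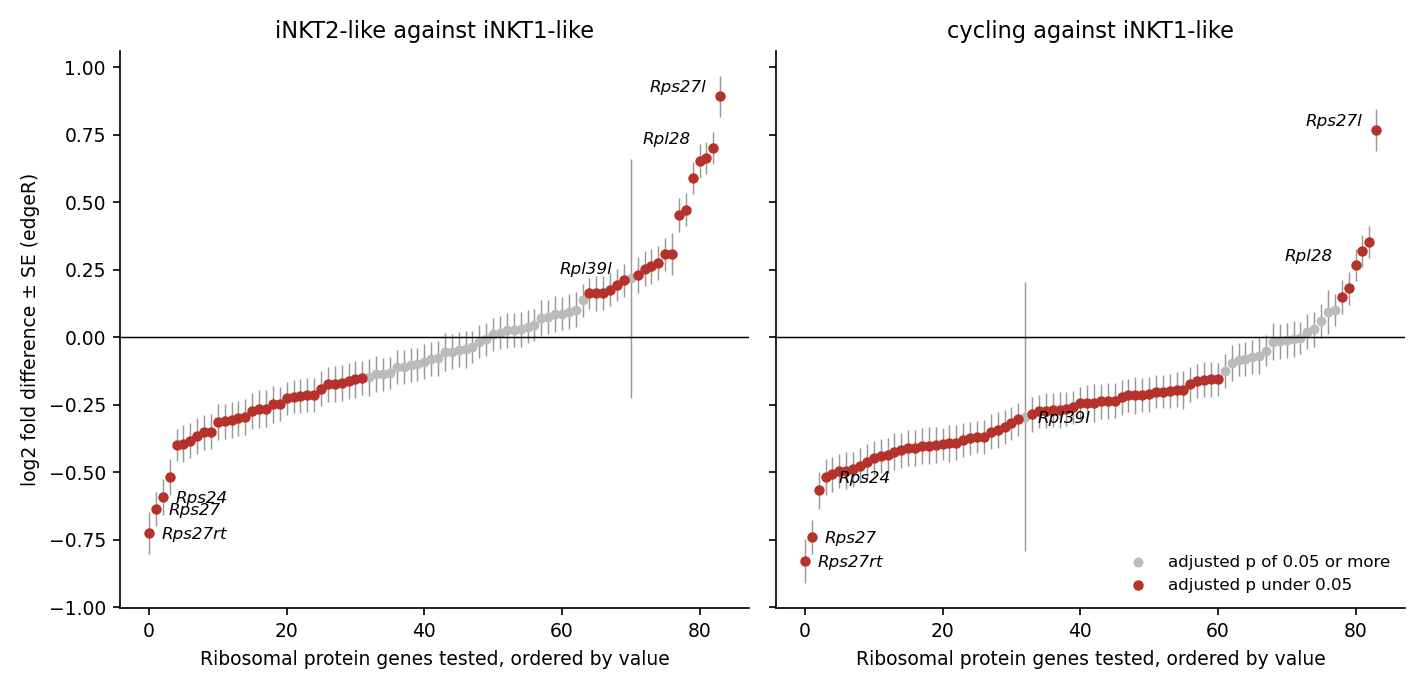
Log2 difference ± SE (y axis, edgeR) of each ribosomal protein gene tested, ordered by value, in iNKT2-like (left) and cycling (right) against iNKT1-like cells, with calls coloured. Rps27l (0.89 and 0.77) stands at the upper end and Rps27 (-0.64 and -0.74) near the lower end of both.

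In cycling against iNKT1-like cells most calls were falls: 6 of 84 were higher (27.2% of all genes) and 60 lower (32.7%), with a positive log2 difference for 11 (44.3% of all genes) and a median of -0.24 against -0.07 over all genes. Scaling by library totals moved the median over all genes by 0.10, and the distance of the ribosomal protein genes from it was -0.17 before and -0.18 after. Median depth was 8583, 12672.5, 8233.5 and 14527 UMIs per cycling cell, and its part was not tested. Rps27l rose again, to 375.9, 285.2, 355.0 and 260.3 CPM from the iNKT1-like levels given above (log2 0.77 ± 0.08, adjusted p = 6.28e-09). Rpl31 (0.32) and Rpl28 (0.27) rose as well, each without overlap. Rpl28 was not called at a clustering resolution of 0.5 (log2 0.12, adjusted p = 0.144 by edgeR). Without library as a term it was not called either (0.26, adjusted p = 0.113 by edgeR). Rps27 fell to 4508, 4151, 5328 and 4638 CPM (-0.74 ± 0.06, adjusted p = 3.48e-11). It fell in every library. Rps21 (-0.51), Rps14 (-0.50), Rpl30 (-0.48), Rpl12 (-0.45), Rpl9 (-0.44), Rpl19 (-0.44), Rpl13 (-0.42) and Rpl18 (-0.41) had adjusted p of at most 5.78e-06. All 4 X-linked genes were called lower, and 2 of 3 P stalk genes.

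In interferon-responding against iNKT1-like cells, 0 ribosomal protein genes were called higher (5.49% of all genes) and 0 lower (4.97%) by edgeR. An unadjusted p under 0.05 was found for 1, and for 2406 of all 11526 genes. The log2 difference was positive for 47 of 84 (43.1% of all genes), with a median of 0.01 against -0.03. This count depended on the fit. With only these 2 classes in the fit, 14 were called higher and 2 lower (1152 and 853 of all 12475 genes). Without a filter on low counts 19 were lower (1873 of all 22801 genes), and scaled by library totals 2 were lower (841 of all 11526 genes).

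Paralog use was read as the share of the lesser gene among the UMIs of its pair, in each library. Rps27l took 2.39%, 2.14%, 2.64% and 2.10% of the Rps27 and Rps27l UMIs in iNKT1-like cells of WT 1, WT 2, KO 1 and KO 2. In iNKT2-like cells it took 6.11%, 7.65%, 6.91% and 5.12%, and in cycling cells 7.70%, 6.43%, 6.25% and 5.31%. It was higher in both classes than in iNKT1-like cells in 4 of 4 libraries, by 4.13 points on average in iNKT2-like cells (3.03 to 5.51) and 4.11 in cycling cells (3.22 to 5.31). For 4 libraries the exact sign-flip permutation test gives no p under 0.125, which is the value here, and 0.25 and 0.375 after adjustment over 6 pairs. In interferon-responding cells the difference was -0.22 points. KO less WT over all iNKT cells was 0.436 points in number 1 and 0.045 in number 2 (exact permutation p = 0.667), and the mean of 0.24 became -0.09 without KO 1.

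Rpl22l1 moved the other way. Of the Rpl22 and Rpl22l1 UMIs it took 21.6%, 27.7%, 19.9% and 26.1% in iNKT1-like cells, and 15.2%, 21.6%, 15.2% and 20.7% in iNKT2-like cells. The drop was found in 4 of 4 libraries, at -6.35 to -4.71 points, with a mean of -5.62 (exact permutation p = 0.125, adjusted p = 0.25). In cycling cells the share was 18.7%, 24.9%, 18.3% and 25.7%, with a mean difference of -1.92. Between numbers it differed by more than between genotypes: over all iNKT cells it was 20.6% and 19.1% in number 1 and 27.1% and 25.3% in number 2. KO less WT was -1.58 points in number 1 and -1.79 in number 2, and the mean of -1.69 was 1.53 without WT 2 and 1.42 without KO 1. The coding sequences of Rpl22 and Rpl22l1 are 67.5% identical, and 63.3% of the 50-base stretches at the end of Rpl22l1 occur in 3 other genes.

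Rpl36al, a close paralog of Rpl36a on chromosome 12, took 30.6%, 31.5%, 31.2% and 31.3% of its pair in iNKT1-like and 33.2%, 37.8%, 35.4% and 34.0% in iNKT2-like cells. The rise was seen in 4 of 4 libraries (mean 3.95 points, 2.65 to 6.32, exact permutation p = 0.125, adjusted p = 0.25). Its genotype difference was 0.80 points in number 1 and -0.39 in number 2. Rps27rt took 0.49%, 1.68%, 0.48% and 1.58% of the Rps27 and Rps27rt UMIs over all iNKT cells, so it followed the library number, while its mean differences between classes were -0.02 points for iNKT2-like, -0.04 for cycling and -0.0019 for interferon-responding cells. Of the other pairs, Rpl3l and Rpl10l had too few UMIs to compare.

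**Figure D5:**
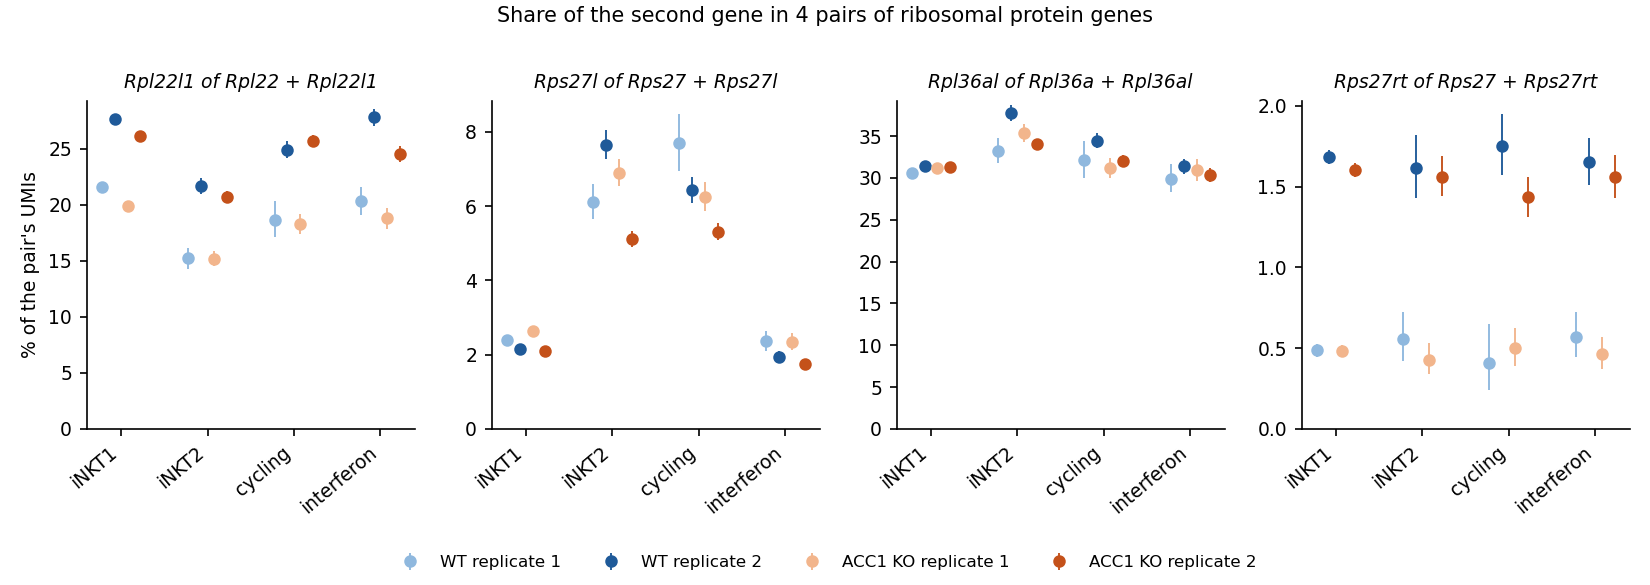
Share of the second gene among the UMIs of its pair (y axis, %) in 4 cell classes (x axis) for 4 pairs, with 1 point per library and bars for the 95% Clopper-Pearson interval. Rps27l and Rpl36al lie higher and Rpl22l1 lower in iNKT2-like than in iNKT1-like cells in all 4 libraries, and Rps27rt separates the libraries numbered 1 and 2.

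The start sites of the genes that moved most between iNKT1-like and iNKT2-like cells were compared, since TOP mRNAs are defined by their first bases. RefSeq promoter windows (GRCm38.p6, 250 bases before to 50 after the start) were found for 66 of the 86 genes. A pyrimidine run was taken as C followed by at least 4 C or T on the gene's strand. It had to begin within 2 bases of the annotated start. Such a run was present in 33.3% of these genes (22 of 66), against 10.6% of all 27025 genes with a window. It was present in 5 of 17 genes with a window called higher in iNKT2-like cells (29.4%) and 11 of 24 called lower (45.8%). The 15 bases before and after the start of 3 genes that fell and 2 that rose follow, 5′ to 3′ on the gene's strand, with the run in capitals.
Rps27, chr3:90213634-90213663, minus strand: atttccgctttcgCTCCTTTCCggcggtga
Rps24, chr14:24490663-24490692, plus strand: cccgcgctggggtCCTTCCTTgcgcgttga
Rps21, chr2:180257364-180257393, plus strand: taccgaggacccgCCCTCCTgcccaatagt
Rps27l, chr9:66946071-66946100, plus strand: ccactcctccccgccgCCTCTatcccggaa
Rpl28, chr7:4792950-4792979, plus strand: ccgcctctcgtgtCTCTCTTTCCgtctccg
Rps24, Rps21 and Rps27l each have a second annotated start without a run, and a gene was counted as having one if any of its starts did. Whether the annotated starts are those used in these cells was not tested, so these percentages describe the annotation. The longest of these 5 runs belongs to Rpl28, which rose, and Rpl31, Rps26 and Rplp0, which also rose, have none by this definition. On both strands of the 300-base windows, CTTCCG, the core of the ETS-factor site, occurred in 66.7% of the 66 genes and 18.8% of all genes with a window. CTCTTTC occurred in 27.3% against 9.28%, and TATAAA, the TATA box, in 10.6% against 15.7%. CTTCCG was found in 14 of 17 genes with a window that rose (82.4%) and 15 of 24 that fell (62.5%). A match of letters is a description and does not show that a factor binds.

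Other genes of ribosome production were read from lists. Of 37 ribosome biogenesis genes, 26 were higher and 1 lower in iNKT2-like than in iNKT1-like cells (median log2 0.35), where 31.0% of all genes were called higher and 32.7% lower. They included Wdr12, needed for large-subunit processing (29.9 to 53.8 CPM on average, 0.80 ± 0.08), and the nucleolar protein nucleolin, Ncl (498.9 to 738.1 CPM, 0.49 ± 0.07). Of 78 genes of the mitochondrial ribosome, 62 were higher and 1 lower (median 0.37), such as Mrpl52 (177.3 to 302.6 CPM, 0.69 ± 0.05). Cytosolic ribosomal protein genes, with 19 higher and 32 lower in the same contrast, did not share this direction. Among 20 translation factors and other TOP mRNAs, 10 were higher and 3 lower, with Hnrnpa1 (0.87) and the snoRNA host Gas5 (0.72) up and Tpt1 (-0.56) down. A list of 17 regulators of ribosomal protein mRNAs held genes of mTORC1 and others such as Larp1, Myc and Max. Of the 16 tested, 5 were higher and 3 lower, with Ddit4, an inhibitor of mTORC1, at 1.21 and Rptor, its scaffold subunit, at -1.01.

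In cycling cells 15 biogenesis genes were higher and 3 lower, and 57 and 2 of the mitochondrial ribosome, beside the 6 and 60 of the cytosolic one and 27.2% and 32.7% of all genes. In interferon-responding cells 32 of 37 biogenesis genes were lower and 0 higher (median -0.41, against 4.97% and 5.49% of all genes), where no ribosomal protein gene was called. By genotype over all iNKT cells, none of these lists had a call. Positive were 36 of 37 biogenesis genes (median 0.16) and 19 of 20 TOP and translation genes (0.12). So were 13 of 17 genes of the mTORC1 and regulator list (0.08) and 56 of 78 mitochondrial ribosome genes (0.05). Over all genes 48.5% were positive. Fau, which encodes a small-subunit protein fused to a ubiquitin-like protein, lies outside the name rule. It was at 4487, 6058, 4985 and 6038 CPM in WT 1, WT 2, KO 1 and KO 2, highest in the libraries numbered 2.

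Over the 16 sums of 4 classes in 4 libraries, genes outside the set whose log2 CPM was most like the summed level of ribosomal protein genes included Nop53 (Pearson r 0.914), Fau (0.870), Jun (0.860), Eif3f (0.859), Eef2 (0.850), Grcc10 (0.844), Ptp4a2 (0.843), Rack1 (0.816) and Slc38a2 (0.815), of 1456 genes compared. The sums share libraries and depth, so these are descriptions. Within the set, Rps2 (-0.51), Rps27l (-0.49) and Rpl3 (-0.25) were least like the summed level.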

How the data were processed

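Single-cell RNA sequencing was done on thymic iNKT cells of 4 libraries, 2 per genotype. The deposited tables hold raw UMI counts per gene and cell, made with Cell Ranger 7.0.0 on mm10 per the submitters' processing notes. Annotation version and intron setting are not stated in the sources used here. Every later step was run on these counts.

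Barcodes with under 500 genes, under 1000 UMIs or over 10% mitochondrial UMIs were removed (33 to 146 per library), then predicted doublets (238 to 783), scored against simulated ones. Cells were clustered (scanpy 1.11.5, Leiden at resolution 1 on 2000 variable genes and 30 components) without the genes reported on, and named from markers. Counts were summed per library and class, and a class needed 50 cells in every library to be tested. edgeR 4.0.16 (TMM, filterByExpr, robust quasi-likelihood test, R 4.3.3) was fitted to all genes, with Benjamini-Hochberg adjustment and a threshold of 0.05, and DESeq2 1.42.0 was an alternative. Genotype was fitted without a block. Classes were fitted with library as a term. Single values were compared by exact permutation over libraries (Python 3.11.15, scipy 1.17.1). Totals of 23705179 to 65656909 UMIs leave little counting error, so that the number of libraries limits precision. Tested on simulated counts, the genotype fit recovered 83.6% of 4-fold, 35.8% of 2-fold and 0% of 1.5-fold changes. These were made in a random draw of genes above a minimum of counts. It tested 14729 genes and called 13 unchanged ones. The fit of iNKT2-like against iNKT1-like cells recovered 97%, 86.6% and 72.7%, tested 11120 genes and called 10 unchanged ones.

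Genes and lists were chosen with earlier results of these data known. Named were the paralogs and their partners, the P stalk, the X-linked genes, the 5 highest and 5 lowest, and per comparison up to 10 calls per direction with the largest fold, a mean CPM of 20 or more and groups that did not overlap. Where none passed, the 3 with the smallest p per direction were named. Of each other list, up to 4 genes with the smallest p were eligible. Some genes that these rules name are not reported here. Genes like the set needed a mean of 100 CPM. Sequence was compared with GENCODE transcripts of the same build. Alternatives were other scalings, filters, clusterings, doublets kept, DESeq2, a block for the library number and each library left out.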

Additional observations from a re-analysis of the deposited data

Results flagged for a closer look

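The genotype difference went one way in iNKT1-like and the other way in iNKT2-like cells, in both library numbers, for 5 ribosomal protein genes. In each, KO exceeded WT in both numbers in iNKT1-like cells and lay below WT in both numbers in iNKT2-like cells, on counts scaled by library totals. Of 83 ribosomal protein genes with a mean of at least 20 CPM this was 6.02%, against 1.84% of all 5990 such genes. The reverse pattern was seen in 9.63% of those and in 0 of the set. The 5 were picked by this sign pattern. The difference between the classes (log2, iNKT2-like less iNKT1-like, edgeR) was -0.335 for Rplp0, -0.263 for Rpl7a, -0.240 for Rpl14, -0.228 for Rps3a1 and -0.189 for Rpl28. None passed the test, with adjusted p of 0.678, 0.808, 0.863, 0.891 and 0.919. For Rplp0, which anchors the P stalk, the log2 ratios were 0.23 and 0.09 in iNKT1-like cells and -0.06 and -0.08 in iNKT2-like cells of numbers 1 and 2. For Rpl7a, which lies near the tunnel exit, they were 0.12 and 0.14 against -0.03 and -0.03. The remaining 3 genes had ratios of at most 0.09 in iNKT1-like cells, 0.0939 for Rpl28 in number 1.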

How the results depend on the processing

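Over all alternatives, 335 of the values that answer a comparison were unchanged, 26 counts moved by over 1.5 times or away from 0, and 16 values turned. A count was unchanged if it was equal or within 1.5 times. A share was unchanged if its direction held. Its exact permutation p cannot fall under 0.05 with so few libraries, so the threshold could not be crossed. Leaving out a library turned the genotype difference of the share: over all iNKT cells it ran from -0.28 (without WT 1) to 5.29 points, in iNKT2-like cells from -1.06 to 2.56, and in interferon-responding cells from -0.43 to 5.44. Paralog shares by genotype also turned: without single libraries Rpl22l1 ran from -4.90 to 1.53 points, Rpl36al from -0.35 to 0.76, Rps27l from -0.0858 to 0.567 and Rps27rt from -0.65 to 0.54, and with every barcode Rpl36al was -0.11. Rps27rt between classes ran from -0.0764 to 0.00299 in cycling and from -0.031 to 0.0118 in interferon-responding cells. The signs of single genes by genotype turned likewise: over all iNKT cells, without single libraries, Rpl13a ran from -0.838 to 0.389, Rpl10 from -0.529 to 0.245 and Rps19bp1 from -0.078 to 0.0442 (log2). In iNKT2-like cells Rpl10 ran from -0.573 to 0.0921, Rps6 from -0.503 to 0.0985 and Rpl5 from -0.558 to 0.161. The cause was not tested.

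The library numbers are shared between genotypes, and deviations from the genotype means correlated at 0.836 over 4489 genes, but the labels do not say that a number marks a pair. With a replicate block, genes called higher in KO numbered 14 for iNKT1-like, 1 for cycling and 28 for interferon-responding cells, in place of 0 (16.7%, 1.2% and 33.7% of those tested, against 5.6%, 1.17% and 2.56% of all genes). Scaled by library totals they numbered 6, 1 and 11 (3.74%, 1.05% and 1.71% of all genes), and 3 over all iNKT cells (4.87%). Scaled to genes outside the set, they numbered 11 in iNKT1-like and 30 in interferon-responding cells (5.68% and 2.78%). Between classes, with no replicate block, 7 genes were higher and 6 lower in iNKT2-like cells (2630 and 2617 of all 11293 genes). In cycling cells 3 were higher and 21 lower (2309 and 2259 of all genes). By library number, genes called higher fell from 37 to 17 without the genotype term (from 2178 to 546 of all 14739 genes). Scaled by totals 4 were lower (3007 of all genes). Fits without 1 library assume that the lone library varies like the others, so their calls are not given. Scaled by totals, 29 genes were higher in iNKT2-like cells, 10 higher in cycling cells and 2 lower in interferon-responding cells (4104, 3710 and 841 of all 11526 genes). At a clustering resolution of 0.5, 3 were higher in cycling cells (2252 of all 11459 genes). In interferon-responding cells a fit of the pair alone gave 14 higher and 2 lower (1152 and 853 of all 12475 genes), and no filter 19 lower (1873 of all 22801 genes). Depth limited the rarest paralogs, Rpl3l, Rpl10l and Rpl39l.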
